A study of Arabidopsis thaliana with 74 samples.

Results

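The 24 libraries described here were the 12 with the highest and the 12 with the lowest level of LHY (AT1G01060) among 70 ranked libraries of Arabidopsis thaliana rosettes, out of 74 in the series. The libraries were selected on LHY itself. LHY was counted as counts per 1000000 counted reads (CPM), which scales each library to a common total. The series held 36 epiHybrids, their 36 epiRIL fathers and 2 msCol lines, each as a single library of aerial rosette tissue harvested 27 days after sowing from plants grown in long days. An epiRIL is a Columbia line that carries hypomethylated stretches of DNA descended from a ddm1-2 mutant ancestor, and ddm1-2 disables a chromatin remodeller needed for DNA methylation. msCol is a male-sterile Columbia line whose ms1 mutation sits in a chromosome 5 segment introgressed from Landsberg (Ler), and an epiHybrid is the F1 of an msCol mother and an epiRIL father, so every epiHybrid is heterozygous for that segment. Rosettes of several plants of a line were pooled before RNA extraction, and no line had a second library. The epiHybrids of families 340 and 368 and both msCol lines were not ranked.

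LHY and its close relative CCA1 are MYB transcription factors whose RNA peaks around dawn, and together they repress evening genes through a short promoter sequence called the evening element. The pseudo-response regulators then follow each other through the day and repress LHY and CCA1, and at dusk ELF3, ELF4 and LUX form the evening complex. Clock outputs in a leaf include the photoperiod pathway to flowering, starch turnover, nitrate reduction, cold response and pigment synthesis.

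The evening element (AAAATATCT), the CCA1-binding site (AAAAATCT) and the G-box (CACGTG) were searched on both strands in the sequence from 250 bases before to 50 bases after each gene start of the TAIR10.1 annotation. No 2 of these motifs contain each other. An evening element was found in 3 of 5 pseudo-response regulators, in 6 of 13 evening complex and evening genes and in 1 of 14 morning MYB factors and partners, against 3.08% of 19035 protein-coding genes measured. A G-box was found in 10 of the 14 morning genes, in 2 of the 5 pseudo-response regulators and in 2 of the 13 evening genes, against 8.93% of all. The CCA1-binding site was found in 2, 1 and 2 genes of these lists, against 8.17% of all. From 1000 bases before to 200 after the start, 8 of the 13 evening genes had an evening element, GI and ELF4 now among them. So did 3 of the 5 pseudo-response regulators and 1 of the 14 morning genes, against 8.63% of all. A G-box was found there in 11, 2 and 5 genes of these lists (19.4% of all) and a CCA1-binding site in 4, 3 and 5 (24.7% of all). A match to these letters is a description of the sequence and not a site shown to be bound. The 250 bases before the gene start are given for LHY and CCA1, and for 3 genes that were lower in the high libraries (TOC1, LUX and FKF1). They are read from RefSeq's TAIR10.1, 5′ to 3′ along the gene, with evening elements, CCA1-binding sites and G-boxes in capitals.
LHY (chr1:37872-38121, minus strand): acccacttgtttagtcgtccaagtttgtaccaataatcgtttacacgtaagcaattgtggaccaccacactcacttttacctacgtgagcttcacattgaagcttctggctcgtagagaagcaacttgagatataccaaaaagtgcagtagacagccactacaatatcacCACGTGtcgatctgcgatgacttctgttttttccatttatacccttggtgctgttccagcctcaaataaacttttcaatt
CCA1 (chr2:19245341-19245590, plus strand): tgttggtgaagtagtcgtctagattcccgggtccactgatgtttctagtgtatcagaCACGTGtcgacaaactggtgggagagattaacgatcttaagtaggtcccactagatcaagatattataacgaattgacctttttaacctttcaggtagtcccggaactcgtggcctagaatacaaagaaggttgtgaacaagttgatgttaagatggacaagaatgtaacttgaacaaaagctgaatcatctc
TOC1 (chr5:24674713-24674962, plus strand): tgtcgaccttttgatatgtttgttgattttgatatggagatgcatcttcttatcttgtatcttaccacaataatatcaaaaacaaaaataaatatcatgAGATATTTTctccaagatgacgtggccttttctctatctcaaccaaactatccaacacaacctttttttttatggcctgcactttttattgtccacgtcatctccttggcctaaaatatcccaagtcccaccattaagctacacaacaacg
LUX (chr3:17182792-17183041, plus strand): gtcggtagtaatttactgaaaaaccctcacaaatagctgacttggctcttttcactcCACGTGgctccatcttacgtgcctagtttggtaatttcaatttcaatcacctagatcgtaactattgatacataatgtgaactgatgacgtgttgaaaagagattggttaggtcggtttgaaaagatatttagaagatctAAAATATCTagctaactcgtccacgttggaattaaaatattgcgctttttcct
FKF1 (chr1:25508389-25508638, plus strand): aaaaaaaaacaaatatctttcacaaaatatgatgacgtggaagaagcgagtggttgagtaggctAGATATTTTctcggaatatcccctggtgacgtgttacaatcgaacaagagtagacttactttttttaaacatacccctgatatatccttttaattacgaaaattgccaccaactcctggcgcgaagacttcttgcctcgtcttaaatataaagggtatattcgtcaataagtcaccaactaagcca
LHY and CCA1 carried a G-box and no evening element, TOC1 and FKF1 an evening element alone, and LUX both.

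LHY ranged from 1.95 CPM (80 counts, exact binomial 95% interval 1.55 to 2.43 CPM) in the epiHybrid of family 310 to 17.4 CPM (719 counts, 16.2 to 18.7 CPM) in the epiHybrid of family 158. These intervals cover counting error only. In the 12 high libraries its lowest, median and highest levels were 12.9, 13.6 and 17.4 CPM, and in the 12 low libraries 1.95, 5.78 and 6.63 CPM. The threshold fell within a continuous range: the 12th highest library held 12.9 CPM and the next 12.4 CPM, while the highest of the low libraries held 6.63 CPM and the next above it 6.67 CPM. The difference of mean log2(CPM + 1) that this choice gave was 1.297, and 1.20 without the epiHybrid of family 310. On the scale of TMM, a normalisation that allows for a few abundant genes, 12 of the 12 high and 11 of the 12 low libraries were chosen again. The high group held 7 epiHybrids and 5 epiRILs and the low group 5 epiHybrids and 7 epiRILs, a split for which Fisher's exact test (two-sided) gave p = 0.684, although it takes libraries as independent and 5 families had both members among the 24. Both members of family 158 were high, both members of families 310, 54 and 219 were low, and family 426 had its epiHybrid in the high and its epiRIL in the low group.

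**Figure D1:**
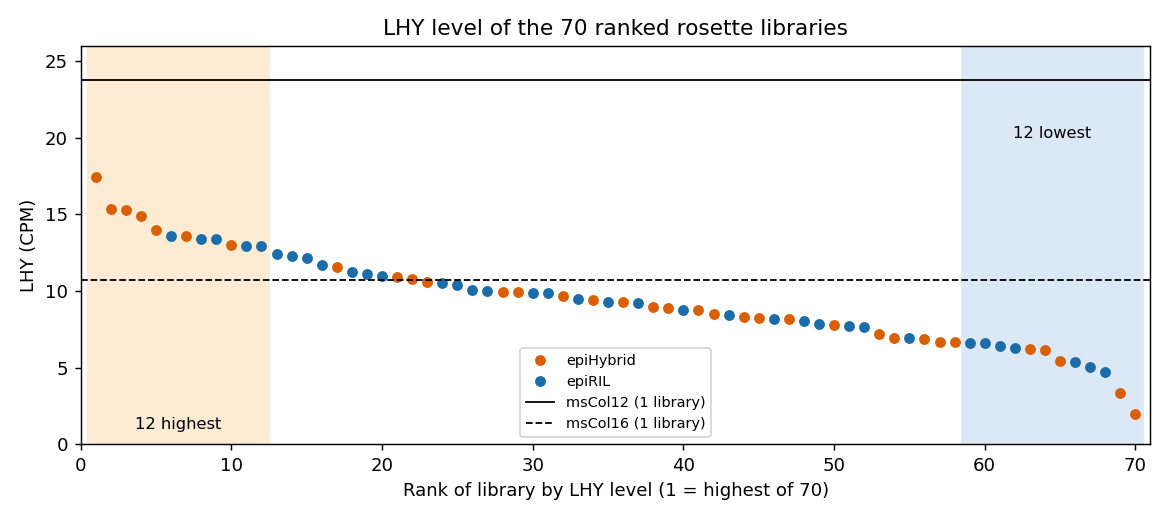
LHY level in CPM (y axis) of the 70 ranked libraries in order of rank (x axis), coloured by line type, with the high and low groups shaded and the 2 msCol libraries as horizontal lines. Levels fell from 17.4 to 1.95 CPM with no wide gap at the bounds of the groups. The libraries at both ends stood apart from the next ones (15.3 and 3.34 CPM). msCol12 (23.8 CPM) lay above every ranked library, and msCol16 (10.7 CPM) below 22 of them.

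Features of the libraries other than gene levels are given first. Total counts per library, in units of 1000000, were 38.8 to 42.2 in the high group and 39.1 to 41.7 in the low group. The length slope, which is the slope of a library's deviation from the mean log2 level on log2 exon length and is positive where long transcripts are relatively abundant, had its lowest, median and highest value at -0.137, 0.107 and 0.145 in the high group and at -0.364, 0.00891 and 0.113 in the low group. Over the 70 libraries its Spearman rho with LHY was 0.38, given as a description since both come from the same libraries. The labels give the day but not the hour of harvest, which according to the study's methods spanned a few hours. Those methods also state that rosettes from all replications of the experiment were pooled, so a library need not have a single hour of harvest. The part of harvest time in any difference was not tested. In rosettes fewer cells of a type and less RNA per cell cannot be told apart. The 4 leaf markers summed to between 35392 and 63468 CPM in the high and between 37420 and 64956 CPM in the low group. Of the 5 root markers none exceeded 0.293 CPM in these 24 libraries and EXPA7 was at 0 in all of them. All 5 flower markers (AP1, AP3, PI, AG and SEP3) were detected in both groups, with summed levels of 11.7 to 21.2 CPM in the high and 8.55 to 26.5 CPM in the low libraries and all 5 on the low side (median difference -0.14). The part of length slope and of flower tissue in the differences was not tested beyond the values given beside them.

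The libraries with high LHY had more RNA of most morning genes and less of most evening genes. Of the 31 core clock genes other than LHY, 17 had a higher and 14 a lower mean log2 level in the high group. Of the 13 morning MYB factors and partners 12 were on the high side (median difference 0.52), of the 13 evening complex and evening genes 10 were on the low side (median -0.48), and the 5 pseudo-response regulators were split 2 to 3. Over all 19382 genes other than LHY the median was 0.04, with 11453 genes on the high side. No test is given for this contrast, because the libraries were chosen by LHY.

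Among the morning factors, CCA1 was the gene with the largest difference after LHY itself. CCA1 had its lowest, median and highest level at 29.2, 54.3 and 89.5 CPM in the high libraries and at 4.95, 28.3 and 36.95 CPM in the low libraries. The groups overlapped through 1 high library, and the difference of mean log2(CPM + 1) was 1.24 (1.06 without the epiHybrid of family 310, and 0.89 with length slope in a least squares fit over the 24 libraries). RVE8, a LHY-like factor that activates evening genes, was at 13.4, 18.8 and 22.8 CPM in the high and 4.27, 10.9 and 13.3 CPM in the low libraries. Every high library lay above every low one, with a difference of 0.91. RVE1, which links the clock to auxin in Arabidopsis seedlings, was at 6.54, 8.24 and 13.04 CPM in the high and 2.02, 4.84 and 5.9997 CPM in the low libraries. The groups were again separate, with a difference of 0.84. The other REVEILLE genes differed less: RVE3 by 0.52, RVE4 and RVE5 by 0.25 and 0.25, RVE6 by 0.07 and RVE7 by 0.04, while RVE2 was on the low side at -0.21, all with overlapping groups. RVE6 turned to -0.01 on the TMM scale, and with length slope in the fit RVE7 turned to -0.02 and RVE5 was 0.12. RVE2 and RVE3 were near 1 CPM, where the log2(CPM + 1) scale understates a change.

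LNK1 to LNK4 are clock proteins without a DNA-binding domain that bind RVE8 and CCA1. LNK3 was at 45.5, 48.1 and 57.4 CPM in the high and 19.3, 33.2 and 43.1 CPM in the low libraries, a separation of the groups with a difference of 0.64. LNK2 differed by 0.77, LNK1 by 0.64 and LNK4 by 0.38, all with overlap. With length slope in the fit these became 0.48, 0.33 and 0.39, and that of LNK3 became 0.61. The annotation places another gene across part of each LNK gene, as also of RVE1, RVE3 and RVE5. Since the use of strand in counting is not given in the sources used here, reads of such neighbours cannot be told apart.

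RVE8, RVE1 and LNK3 were thus 3 of 31 core clock genes whose high libraries all lay above the low ones, and no core gene had all its high libraries below. Over all genes tested 12 (0.0619%) were separate in the first direction and 6 (0.031%) in the other. These shares describe libraries picked on LHY and nothing is read from them. With the epiHybrids of families 340 and 368 ranked as well, 17 genes were separate, 10 of them among these 18. LNK3 was among the 10, while RVE8 and RVE1 were not, since the epiHybrid of family 368, then in the low group, held 17.6 and 8.95 CPM of them.

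**Figure D2:**
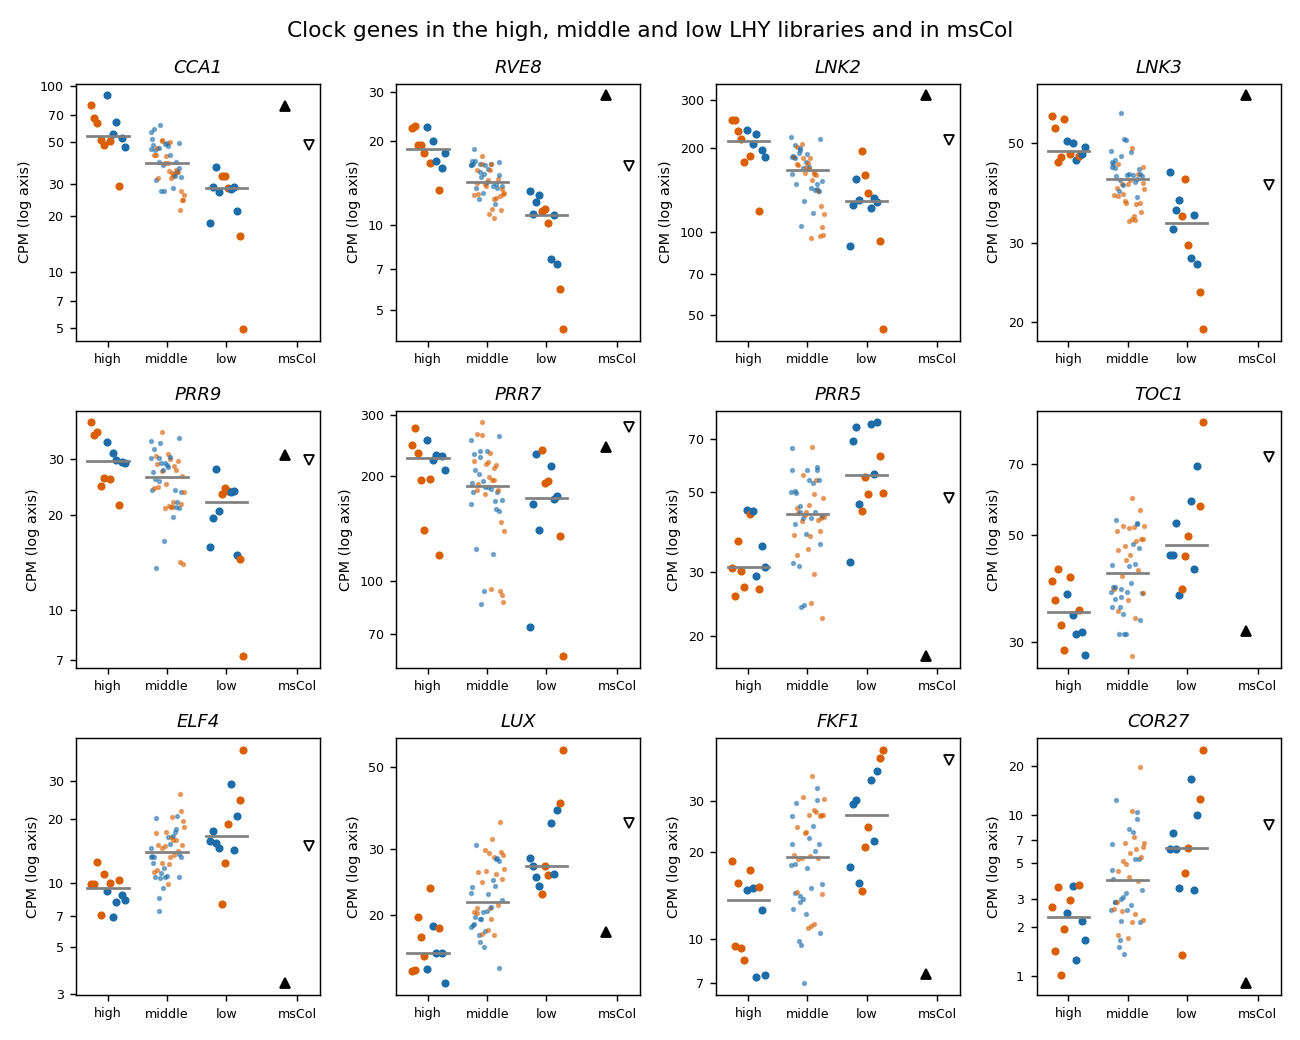
Level in CPM (log axis) of 12 clock genes in the 12 high, 46 middle and 12 low LHY libraries and in msCol12 (filled triangle) and msCol16 (open triangle), with epiHybrids in orange, epiRILs in blue, libraries ordered by LHY within a group and grey lines at the medians. RVE8 and LNK3 had no overlap between the high and low groups, and the epiHybrid of family 310 was the lowest low library for CCA1 (4.95 CPM) and the highest for TOC1 (85.2 CPM).

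The pseudo-response regulators peak in turn, PRR9 first and TOC1 last, and they divided by that order. PRR9, which peaks in the morning, was at 21.5, 29.4 and 38.96 CPM in the high and 7.19, 21.9 and 27.9 CPM in the low libraries (difference 0.62, and 0.39 with length slope in the fit). PRR7 followed at 119, 226 and 277 CPM and 60.6, 174 and 238 CPM (difference 0.42), and its difference was 0.05 with length slope in the fit. The later members lay the other way. PRR5 was at 25.8, 30.95 and 44.5 CPM in the high and 31.9, 55.6 and 77.8 CPM in the low libraries, a difference of -0.74. PRR3, a partner that stabilises TOC1, differed by -0.72, from a median of 18.04 CPM in the low to 10.9 CPM in the high libraries. TOC1, the evening repressor of LHY and CCA1, was at 28.2, 34.6 and 42.4 CPM in the high and 37.6, 47.6 and 85.2 CPM in the low libraries, a difference of -0.54. With length slope in the fit PRR5, PRR3 and TOC1 differed by -0.87, -0.84 and -0.51. All 5 had overlapping groups.

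Of the evening complex, LUX, its DNA-binding member, was at 13.1, 15.8 and 23.5 CPM in the high and 22.7, 27.04 and 55.6 CPM in the low libraries. Only 1 high library reached the range of the low ones, and the difference was -0.84. ELF4, a small protein of the complex, was at 6.89, 9.51 and 12.6 CPM against 7.998, 16.6 and 42.3 CPM (difference -0.89). BOA, the close relative of LUX, lay near 1 to 2 CPM and differed by -0.48, while ELF3, the scaffold of the complex, differed by -0.20. ELF3, LUX, BOA and FKF1 share part of their annotated span with another gene.

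The largest differences among evening genes were those of COR27 and COR28, cold-regulated repressors within the clock. COR27 was at 1.01, 2.33 and 3.68 CPM in the high and 1.35, 6.19 and 25.2 CPM in the low libraries, a difference of -1.27 (-1.11 without the epiHybrid of family 310). COR28 was at 1.08, 2.09 and 4.30 CPM against 1.61, 6.10 and 17.8 CPM, a difference of -1.14. FKF1, a blue-light receptor that removes repressors of flowering, was at 7.36, 13.6 and 18.6 CPM against 14.7, 26.8 and 45.1 CPM, a difference of -1.06. JMJ30, a histone demethylase of the evening, and CHE, a repressor of CCA1, differed by -0.48 and -0.38, and CHE by -0.22 with length slope in the fit. GI, the partner of FKF1, differed by -0.11 over wide groups (47.7, 94.3 and 122 CPM against 57.4, 99.1 and 148 CPM), and its sign turned within the epiRILs (0.02) and with 18 libraries a group (0.06), while it was -0.41 with length slope in the fit. On the high side of this list were BBX19 (0.48), a partner of CONSTANS, and the FKF1 relatives ZTL and LKP2 (0.14 and 0.17). The name of the list does not give the time at which RNA of each member peaks, which was not measured here.

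The epiHybrid of family 310 was the most extreme of the 24 libraries for 21 of the 31 core genes, being the lowest for 12 and the highest for 9. Its length slope of -0.364 was also the lowest of all ranked libraries. Without it no core clock gene changed sign. The differences kept their sign for 31 of 31 core genes within epiHybrids and for 30 of 31 within epiRILs, GI being the exception. These parts make up the full contrast and were chosen by LHY too. Shared signs thus follow partly by construction, and nothing is read from them.

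**Figure D3:**
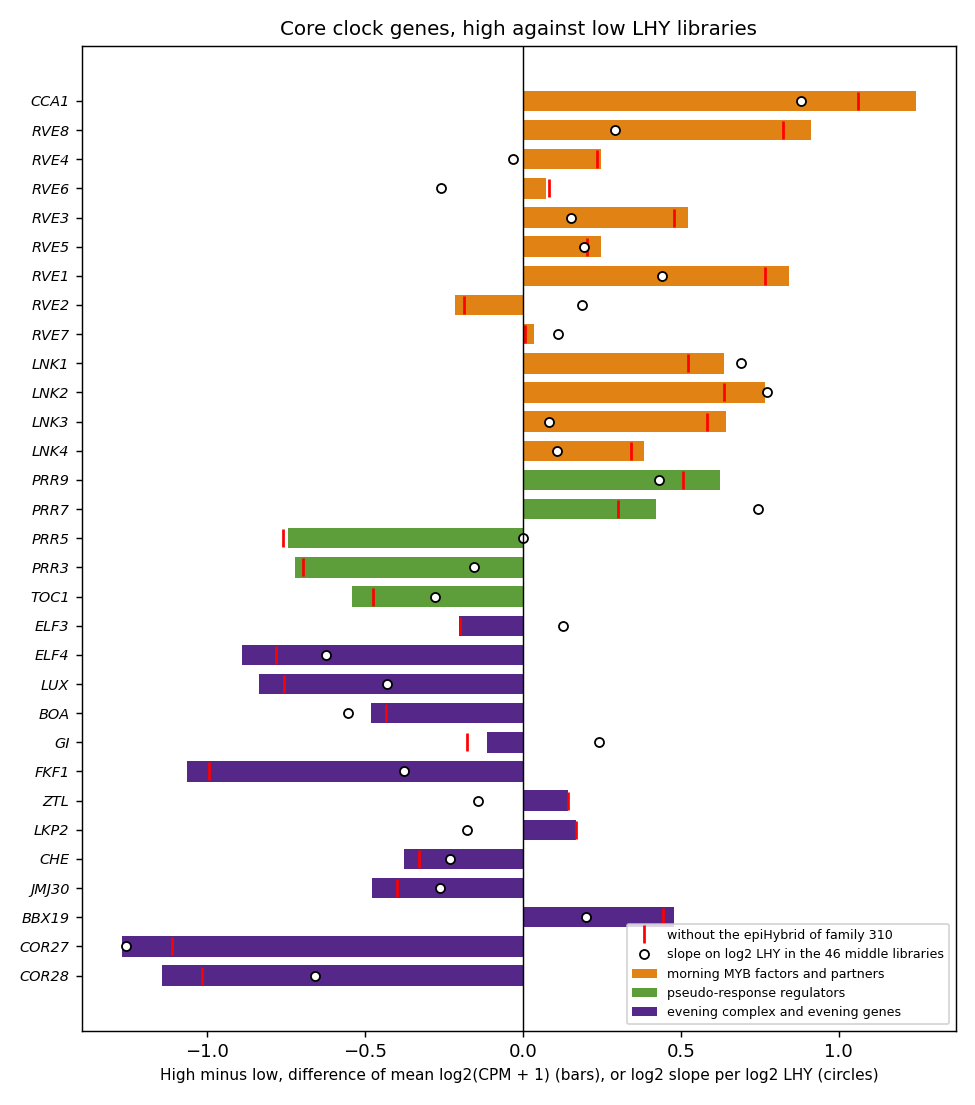
Difference of mean log2(CPM + 1) between the 12 high and 12 low LHY libraries (bars) for 31 core clock genes in 3 groups, the same without the epiHybrid of family 310 (red ticks), and the log2 slope on log2 LHY in the 46 middle libraries (circles). Bars reached 1.24 for CCA1 and -1.27 for COR27, and the circle of PRR5 lay at 0.00 while its bar lay at -0.74.

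Over all genes, the 12 that were separate on the high side included RVE8, RVE1, LNK3 and BBX25, a B-box factor of light signalling that was at 46.9, 52.4 and 59.98 CPM against 25.6, 37.9 and 43.3 CPM. The others with the largest differences were AT5G54130 (0.80), AT5G15950 (0.64), RXW8 (0.58), NDA1 (0.57), which encodes an alternative mitochondrial NAD(P)H dehydrogenase, ABA1 (0.53), the zeaxanthin epoxidase of abscisic acid synthesis, and AT3G01060 (0.50). All 6 separate genes on the low side were AIF1 (-0.95), an atypical basic helix-loop-helix protein, AT5G50450 (-0.79), ALDH5F1 (-0.51), the succinic semialdehyde dehydrogenase of the GABA shunt, PTAC17 (-0.45), NAP1;3 (-0.45), a nucleosome assembly protein, and MAP1C (-0.40), a methionine aminopeptidase. AIF1 was at 4.41, 7.41 and 10.02 CPM in the high and 10.07, 13.4 and 28.8 CPM in the low libraries.

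The genes whose levels followed LHY most closely over the 70 libraries, by Spearman rho of CPM, were COL2 (0.79), AT3G01060 (0.79), RVE8 (0.79), AT5G54130 (0.78) and CCA1 (0.77). The most opposite were OEP16-1 (-0.77), PTAC17 (-0.74), ALDH5F1 (-0.74), MAP1C (-0.71) and AT5G42420 (-0.71). These values describe 70 libraries that include the chosen ones, and carry no p.

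Clock outputs differed by pathway. Their differences are given with the epiHybrid of family 310 included and without length slope in the fit. That library was the lowest of the 24 for COL2, CDF1, CDF2, CDF3, CDF5, CAT2, NIA1, CAT3, PIF5, GBSS1, BAM1 and CHS. It was the highest for GRP7, GRP8 and CHLI1, and neither for FT, ELIP1, COR15B or DFR. In the photoperiod list all 6 measured members were on the high side (median 0.54). COL2, a relative of CONSTANS whose span another annotated gene overlaps, as for CDF5, BBX25, COR15B and CHS, was at 11.3, 17.4 and 19.6 CPM in the high and 3.37, 9.81 and 13.7 CPM in the low libraries (difference 0.79). The CDF genes, repressors of CONSTANS that FKF1 removes, differed by 0.60 for CDF1, 0.61 for CDF2, 0.49 for CDF3 and 0.28 for CDF5. CO itself reached at most 0.888 CPM in these libraries and failed the filter, COL1 was at 0 in all 74 libraries and overlaps another annotated gene, and FT, the florigen, differed by 0.41. All 5 morning rhythmic outputs were on the high side (median 0.65): CAT2, a peroxisomal catalase, went from a median of 560.2 CPM in the low to 852 CPM in the high group, the nitrate reductase NIA1 from 103 to 147 CPM, and the early light-induced ELIP1 from 1.47 to 3.85 CPM. Of the evening outputs, GRP7, an RNA-binding protein that feeds back on its own rhythm, was at 588, 855 and 1054 CPM in the high and 921, 1400.5 and 2685 CPM in the low libraries (difference -0.79). Its relative GRP8 differed by -0.32, and CAT3, an evening catalase, by 0.19.

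Among the 6 B-box factors all were on the high side (median 0.39), BBX30 by 0.52 and BBX32 by 0.43. All 4 photoreceptor genes were on the high side (median 0.22), led by PHYA (0.27). The epiHybrid of family 310 was the lowest of the 24 libraries for each of them. In the 46 middle libraries their median slope on log2 LHY was 0.40, and 0.03 with length slope in the model. Growth outputs of the PIF factors showed no common side (6 high and 5 low, median 0.04): PIF5 differed by 0.36 and the cell wall gene XTH15 by -0.51.

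Of 10 cold regulon genes 7 were on the low side (median -0.22). COR15B, a chloroplast cryoprotective protein, was at 15.5, 25.3 and 45.4 CPM in the high and 19.9, 50.4 and 94.2 CPM in the low libraries (difference -0.95), GOLS3 differed by -0.46, and LTI78, a cold and drought marker, by 0.06. Starch genes were split 9 to 6 (median 0.05): the granule-bound starch synthase GBSS1 differed by 0.87 and the amylase BAM1 by 0.68, while the amylase AMY3 differed by -0.24. Light harvesting and chlorophyll genes were split 6 to 8 (median -0.08), with PORB, a protochlorophyllide reductase, at -0.50 and CHLI1 at -0.33.

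All 11 measured phenylpropanoid and flavonoid genes were on the high side, though the median was 0.16. DFR, which commits flavonoids to anthocyanin, was at 8.78, 20.98 and 80.2 CPM in the high and 1.68, 7.13 and 44.2 CPM in the low libraries, a difference of 1.66 over ranges that overlapped widely. LDOX, the next enzyme, differed by 1.27, the anthocyanin regulator MYB75 by 1.05 and CHS, the first flavonoid enzyme, by 0.89. Of the 12 libraries with the least DFR, 7 were low LHY libraries, and of the 12 with the most DFR, 4 were high LHY libraries. F3H had almost no counts and overlaps another annotated gene. For the touch gene AT4G29780, the defence gene PR1, ASN1, SOC1, CYCB1;2 and BHLH38 the high minus low differences were 0.50, 0.03, 0.15, 0.02, -0.07 and 0.12. In the sugar starvation list 3 genes were on the high and 2 on the low side, with BCAT2 at 0.81, DIN2 at 0.36 and DIN10 at -0.39. Both water deficit genes were on the high side, RAB18 by 1.09 and RD29B by 0.83. Their summed level had a median of 23.3 CPM in the high and 17.6 CPM in the low group. RAB18 alone held 491 CPM in the epiHybrid of family 158.

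The 46 libraries between the groups belonged to neither of them. They were ranked by LHY too, and the ranking limited their LHY to a range of 6.67 to 12.4 CPM. Whether other genes follow LHY there was tested with edgeR's quasi-likelihood test, with line type in the model and Benjamini-Hochberg adjustment over 19382 genes. The slope is the log2 change of a gene per doubling of LHY. At an adjusted p under 0.05 the test called 5 genes rising (0.0258% of those tested) and 14 falling (0.0722%) with LHY. Of the 31 core clock genes 2 were called, both rising. CCA1 rose with a slope of 0.88 ± 0.17 (SE, edgeR adjusted p = 0.0234) and LNK2 with 0.77 ± 0.15 (edgeR adjusted p = 0.0334). In the photoperiod list COL2 rose with 0.68 ± 0.12 (edgeR adjusted p = 0.0164), the smallest adjusted p of all genes. No other gene of the clock and output lists was called.

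These calls did not hold when length slope, whose Spearman rho with LHY was 0.37 in the middle libraries, was added to the model: no gene was called, and 861 genes were under an unadjusted p of 0.05, against 5445 without it. The slope of COL2 was then 0.64 (edgeR adjusted p = 0.0862), that of LNK2 0.39 (edgeR adjusted p = 0.0862) and that of CCA1 0.53 (edgeR adjusted p = 0.535). No gene was called either without the 2 libraries of most extreme LHY, where 3920 genes had an unadjusted p under 0.05 and the slopes of CCA1, LNK2 and COL2 were 0.84, 0.73 and 0.59. With family as a replicate block, over the families with both members in the middle, no gene was called, 3518 were under an unadjusted p of 0.05 and these slopes were 0.74, 0.60 and 0.72.

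**Figure D4:**
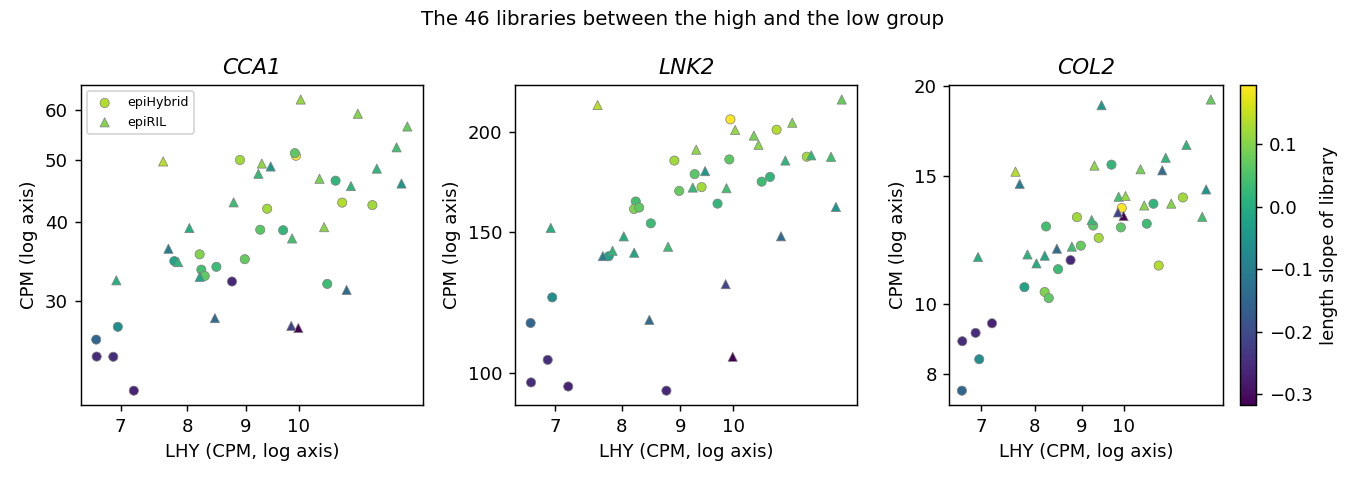
Level in CPM (log axis) of CCA1, LNK2 and COL2 against LHY (CPM, log axis) in the 46 middle libraries, with epiHybrids as circles, epiRILs as triangles and colour giving the length slope of the library. All 3 genes rose with LHY in the model without length slope, and the libraries with the lowest length slope (down to -0.318) had low levels of CCA1 and LNK2.

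With the called genes included, 8 of the 31 core genes had an unadjusted p under 0.05 with a positive slope and 4 with a negative one, against 14.2% and 13.9% of all genes. Of those not called, RVE8 had a slope of 0.29 ± 0.10, LNK1 of 0.69 ± 0.18 and PRR7 of 0.75 ± 0.25, while ELF4 had -0.63 ± 0.20 and LUX -0.43 ± 0.17 (edgeR adjusted p from 0.0729 to 0.103). PRR5 had a slope of 0.00 ± 0.22, TOC1 of -0.28 ± 0.15 and FKF1 of -0.38 ± 0.31, with adjusted p of 0.998, 0.202 and 0.435 (edgeR). DESeq2 called many more genes, 924 rising (4.77%) and 517 falling (2.67%), among them 5 core clock genes rising (CCA1, RVE8, LNK1, LNK2 and PRR7) and 1 falling (ELF4), while it gave no adjusted p for RVE2, RVE3 and BOA. The median slope was 0.19 over the 13 morning genes, -0.26 over the 13 evening genes and -0.04 over all genes. The sign of the slope was that of the high against low difference for 23 of the 31 core genes and for 62.8% of all genes. A difference in slope between epiHybrids and epiRILs was called by edgeR for none of the 31 core genes, against 4 of 19382 genes (0.0206%), while 4028 genes had an unadjusted p under 0.05.

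The remaining genes called rising were OMT1, a methyltransferase of lignin and flavonoid synthesis (0.40 ± 0.08), and AT1G36745, which reached 1 CPM in 2 of the 46 libraries. Of the 14 falling genes, AT2G24340 and AT5G15685 reached 1 CPM in 1 library each, and the slopes of these erratic genes have no useful size. The other 12 had slopes from -0.70 to -0.36. They included H2AXA, a histone variant (-0.44 ± 0.09), ROC3, a cyclophilin (-0.43 ± 0.09), WLIM1, a LIM-domain protein (-0.37 ± 0.08), and BAM4, a regulator of starch breakdown (-0.43 ± 0.09).

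An epiHybrid and its father were compared in LHY and in the other core clock genes over the 34 families with both members ranked. Pearson's r of log2 CPM for LHY was 0.35 (permutation p = 0.0413, adjusted p = 0.0574 over 32 genes) and Spearman's rho 0.15 (permutation p = 0.382, adjusted p = 0.394). LHY thus missed the threshold after correction, and r was 0.29 without the 2 fathers farthest from the median. All 32 genes had a positive r, from 0.18 to 0.60 (median 0.41), as did 94.99% of all measured genes with a count in every library (median 0.31). By r 22 of the 32 passed, the smallest at 0.37, a value that 34.3% of all genes reached, and 7 passed by both measures, whose smallest r and rho 6.57% of all genes reached. Those 7 were PRR9, PRR5, LUX, BOA, JMJ30, COR27 and COR28. COR27 had an r of 0.60 (permutation p = 0.00017, adjusted p = 0.00336), a rho of 0.54 (permutation p = 0.00125, adjusted p = 0.0118) and an r of 0.59 without the 2 farthest fathers. PRR5 had an r of 0.57 (permutation p = 0.00041, adjusted p = 0.00336) and a rho of 0.56 (permutation p = 0.00074, adjusted p = 0.0118). For these 7 genes r without the 2 farthest fathers lay between 0.34 for PRR9 and 0.78 for JMJ30. The tests were two-sided with 100000 permutations. The length slopes of father and epiHybrid had an r of 0.45 over the same families, and its part in these correlations was not tested.

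**Figure D5:**
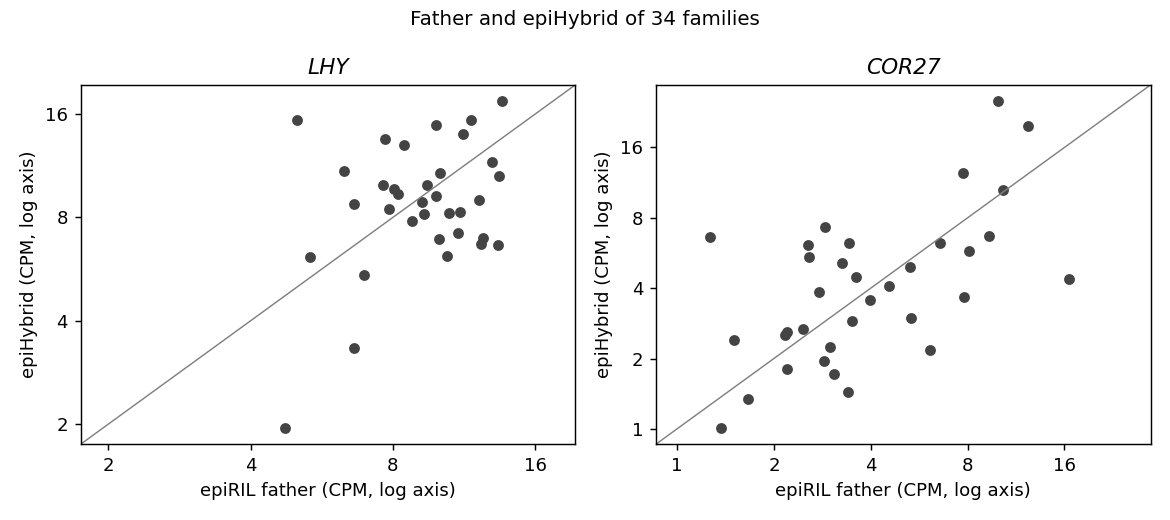
Level in the epiHybrid (y axis) against its epiRIL father (x axis) for LHY and COR27 over 34 families, in CPM on log axes, with the line of equal levels. LHY had an r of 0.35 that missed the threshold after correction, and COR27 an r of 0.60.

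epiHybrids and epiRILs were also compared as groups. With family as a block, edgeR's quasi-likelihood test called none of the 32 core genes, LHY included, against 254 of 19383 genes (1.31%), and DESeq2 called none either. At an unadjusted p under 0.05 there were 5 core genes: LNK3, PRR5, TOC1, LUX and RVE6, against 1922 of all genes (9.92%). LHY differed by -0.06 ± 0.09 (log2, epiHybrid minus epiRIL, SE, edgeR adjusted p = 0.859), PRR5 by -0.17 ± 0.06 (edgeR adjusted p = 0.218) and TOC1 by 0.15 ± 0.05 (edgeR adjusted p = 0.204). PRR5 (chr5:8356204-8358546) lies on the same chromosome as the introgressed segment around MS1. Its distance from MS1 is smaller than the length that the study gives for that segment. Whether the segment spans PRR5 was not tested, nor was the part of a Landsberg copy in its epiHybrid and msCol levels. Outside the clock lists, CHS fell by 0.42 ± 0.10 (edgeR adjusted p = 0.0126) and GBSS1 by 0.28 ± 0.07 (edgeR adjusted p = 0.0322) in epiHybrids. The cold regulators CBF1 and CBF2 fell by 0.55 ± 0.14 and 0.53 ± 0.13 (edgeR adjusted p = 0.0361 and 0.0156). Of the 6 touch and wound genes 5 were called, all 6 had an unadjusted p under 0.05, and their median difference was -0.58. Without families 340 and 368 the calls of GBSS1 and CBF1 were lost (edgeR adjusted p = 0.0737 and 0.0736), while CHS and CBF2 were called (0.0244 and 0.0379).

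The 2 msCol libraries took different places. msCol12 held 23.8 CPM of LHY (exact binomial 95% interval 22.3 to 25.4 CPM), more than any of the 70 ranked libraries, and msCol16 held 10.7 CPM (9.69 to 11.8 CPM), with 22 ranked libraries above it. As each is 1 library, no test is given. msCol12 was nearer to the high than to the low group median for 26 of the 31 other core clock genes, and msCol16 for 17. The morning genes CCA1 (78.3 against 48.3 CPM in msCol12 and msCol16), RVE8 (29.2 against 16.3 CPM), LNK2 (311 against 215 CPM) and LNK3 (63.9 against 40.4 CPM) were higher in msCol12. Other genes of the morning list were lower in msCol12: RVE4 (96.7 against 113 CPM), RVE6 (10.9 against 15.4 CPM), RVE7 (25.4 against 36.03 CPM) and, slightly, RVE2 (1.73 against 1.78 CPM). For RVE8, RVE1, LNK2, LNK3, LNK4 and BBX19 msCol12 lay above all 70 ranked libraries. Several evening genes were lower there. Of the listed evening complex and evening genes, CHE (83.5 against 77.6 CPM) and BBX19 (9.42 against 5.95 CPM) were higher. TOC1 was at 31.7 against 72.2 CPM, ELF4 at 3.38 against 14.9 CPM, FKF1 at 7.56 against 41.5 CPM and COR27 at 0.903 against 8.58 CPM. For PRR5, ELF4 and COR27 msCol12 lay below all 70. GRP7 was at 411 CPM in msCol12 and 1497 CPM in msCol16. The sign of msCol12 minus msCol16 was that of high minus low for 24 of the 31 core genes and for 42.2% of all genes. The pair differed in other lists too, with the touch gene AT4G29780 at 157 against 12.6 CPM and the sugar starvation gene DIN1 at 96.004 against 387 CPM. The 2 unranked epiHybrids held 8.41 CPM (family 340) and 5.70 CPM (family 368) of LHY.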

How the data were processed

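Total RNA of aerial rosettes was sequenced, and the authors deposited raw read counts per gene for 74 libraries. According to the submitters' processing notes, reads were trimmed with Trim Galore, aligned to TAIR10 with TopHat2 and counted with featureCounts. Tool versions, strandedness and the handling of multiply aligned reads are not given in the sources used here. Total counts per library, in units of 1000000, were 38.13 to 42.21. Reads were counted without molecular identifiers.

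CPM was a gene's count divided by the library's total, times 1000000. Of 32833 genes listed, 19383 had at least 1 CPM in at least 2 libraries and were kept. Levels were averaged as log2(CPM + 1). Gene symbols, exon lengths, overlaps and promoters came from TAIR10.1, to which all genes kept were matched.

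Libraries were ranked by LHY CPM, and the 12 highest were set against the 12 lowest as a description, with no test of gene levels. Genes were tested against log2 LHY in the 46 middle libraries, and epiHybrids against epiRILs over 72 libraries with family as a block, with edgeR 4.0.16 (quasi-likelihood, TMM) in R 4.3.3 and Benjamini-Hochberg adjustment at 0.05. DESeq2 1.42.0 was an alternative, and scipy 1.17.1 gave exact and permutation tests. An epiHybrid and its father share a line number, so the block rests on parentage. The fits were tested on simulated data.

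The members and gene lists were chosen with earlier results of these data known. Named were all core clock genes, in each other list the genes whose groups did not overlap (separate genes) and up to 4 of the largest differences, the 10 highest and 10 lowest separate genes among all, and the 5 genes most like and most opposite to LHY. For lists of other axes of variation, such as touch, defence and iron, not all of these were named. Genes the tests called, members of the lists given for their place in a pathway, and 6 genes that mark other axes of variation were named after their values were seen. Other settings tried were the number of libraries per group, TMM scaling, pseudocounts, filters, line type, length slope and the block. Each line had 1 library, so no p-value measures the spread within a line. The slope tests without a block measure the spread between lines and take libraries as independent. Of the 46 middle libraries, however, 34 came from 17 complete families. With family as a block, p-values rest on differences within families, and those of father and epiHybrid rest on shuffled pairings.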

Additional observations from a re-analysis of the deposited data

Results flagged for a closer look

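The slope on LHY in the 46 middle libraries differed between epiHybrids and epiRILs for 4 of 19382 genes (0.0206%), by the interaction term of edgeR's quasi-likelihood test. The difference in slope, epiHybrids minus epiRILs, was -50.00 ± 4.41 (SE) for AT5G28560, -31.79 ± 5.30 for AT1G35614, -26.37 ± 4.20 for AT1G37000 and -19.28 ± 3.54 for AT2G11773, with edgeR adjusted p of 1.64e-08, 0.00299, 0.00897 and 0.00995. These genes reached 1 CPM in 4, 4, 1 and 2 of the 46 libraries. With a filter of 1 CPM in at least 36 libraries no gene was called, while under the first filter 4028 genes had an unadjusted p under 0.05. No core clock gene was called.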

How the results depend on the processing

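The number of genes called with LHY in the middle libraries depended on the setting. Against 19 genes, DESeq2 called 1441, no filter 37, a model without line type 50 and LHY on the TMM scale 3, while epiHybrids alone gave 5034 and epiRILs alone 1. Length slope as a covariate, leaving out the 2 most extreme libraries and the replicate block by family each gave 0, and so did the same paired libraries without the block (0), a comparison added after seeing the data. All 19 were called again with RLE size factors and 16 with the stricter filter. In the middle epiHybrids the Spearman rho of LHY and length slope was 0.63, and in the middle epiRILs 0.15. The cause of these differences was not tested. The slopes of CCA1, LNK2 and COL2 were positive under every setting run. The slope difference between line types was called for 4 genes and for 0 under the stricter filter. Genes with separate high and low groups numbered 18, and 152 with 8 libraries a group, 1 with 18 a group and 8 on the TMM scale, and a group of fewer libraries separates more easily by construction. It was 17 in a ranking of 72 libraries, which shared 10 of the 18 and lost RVE8, RVE1, BBX25, RXW8, ABA1, ALDH5F1, AIF1 and AT5G50450. Leaving out the epiHybrid of family 310, also added after seeing the data, cannot end a separation. The LHY difference was 1.297 and ranged from 0.90 with a pseudocount of 5 to 1.57 within epiHybrids. The r of father and epiHybrid for LHY was 0.35, and 0.24 on the linear CPM scale (permutation p = 0.167). No setting called a core clock gene between epiHybrids and epiRILs, and the replicate block changed no call there (0 with and without it). A sign changed for RVE6, RVE7 or GI under 4 of 10 settings for high against low, length slope over the 24 libraries being one that was added after seeing the data.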
